A study of Mus musculus with 30 samples.

Results

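Secreted WNT antagonists are proteins that hold WNT signalling back outside the cell. The 7 genes described here are Dkk1, Dkk2, Dkk3, Sfrp1, Sfrp2, Frzb and Wif1, chosen by name, out of 15136 genes tested in limb mesenchyme cultures. The arrays carried 14 probe sets annotated to these genes, all 14 passed the filter on low values, and the brightest one stands for each gene. The values are Affymetrix signals given as log2(signal + 16), so a difference of 1 is a doubling of a bright signal and less than the true ratio for a dim one. A level is never compared between genes, because each probe set has its own response.

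WNT ligands bind a frizzled receptor together with the co-receptors LRP5 or LRP6, and in the canonical branch this keeps beta-catenin in the cell and turns on target genes through the TCF and LEF factors. The Dickkopf proteins Dkk1 and Dkk2 bind the LRP co-receptors, whereas the Sfrp proteins, Frzb (also called Sfrp3) and Wif1 bind the ligands themselves. Dkk3 is a divergent relative whose part in WNT signalling is less settled. In the limb bud, WNT ligands from the ectoderm keep the mesenchyme under it growing and hold back cartilage, and Dkk1 is known there from its link to BMP signalling and programmed cell death.

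The cells were taken from limb buds at E10.5 of CD-1 mice, a strain with no engineered allele named in the labels. The early population was the distal part of the hindlimb bud, the intermediate population the distal part of the forelimb bud, and the late population the remaining, proximal part of the forelimb bud. Dissociated cells were plated as dense spots, and medium with serum was added with or without BMP4 at 20 ng/ml, a bone morphogenetic protein that regulates cartilage formation in the limb. Control cultures were sampled at days 0, 1 and 2 and BMP4 cultures at days 1 and 2, which gives 15 groups of 2 arrays. Per the labels RNA came from pooled cultures of about 280 embryos, and they call the 2 arrays of a group biological replicates. Nothing says how the pools were separated, so p-values measure the spread between these arrays.

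Arrays had median signals of 33.9 to 46.4, and replicate arrays correlated across genes at 0.970 to 0.984. Precision is limited by having 2 arrays in each group. The mesenchyme factors Prrx1, Prrx2 and Twist1 were bright on every array. The limb identity genes went against the labels on the 3 replicate 2 arrays of day 0. Pitx1, a hindlimb factor, read 9.74 and 5.90 on the arrays labelled early, 6.15 and 9.43 on those labelled intermediate, and 6.11 and 6.12 on those labelled late. Tbx5, its forelimb counterpart, read 4.47 and 8.50, 8.47 and 4.68, and 8.76 and 8.48 in the same order. Meis2, a proximal limb gene, read 9.68 and 9.86 on the arrays labelled early, 6.97 and 9.73 on those labelled intermediate, and 9.60 and 7.53 on those labelled late. On the arrays of days 1 and 2 Pitx1 stayed between 9.37 and 9.95 in the early population and below that range in the others, at 4.75 to 6.66. The arrays are named by their labels all the same. With all arrays, a first-day change thus starts from a day 0 group whose 2 arrays differ in limb identity genes. First-day changes are given with all arrays and without those 3. Leaving them out keeps only replicate 1 in each day 0 group, and the spread then comes from the other groups.

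The promoters of Dkk1 and Sfrp2 are shown because these were the only members past the threshold in any of the 6 BMP4 comparisons, one higher and the other lower. RefSeq promoters (build GRCm38.p6) matched 5 of the 7 members: Dkk1, Dkk2, Sfrp2, Frzb and Wif1. Dkk3 and Sfrp1 were not matched. The sequences below are the 250 bases before the annotated start, 5′ to 3′ on the strand of the gene, with matches to the searched motifs in capitals. Dkk1 lies on the minus strand at chr19:30549497-30549746 and Sfrp2 on the plus strand at chr3:83766071-83766320.
Dkk1: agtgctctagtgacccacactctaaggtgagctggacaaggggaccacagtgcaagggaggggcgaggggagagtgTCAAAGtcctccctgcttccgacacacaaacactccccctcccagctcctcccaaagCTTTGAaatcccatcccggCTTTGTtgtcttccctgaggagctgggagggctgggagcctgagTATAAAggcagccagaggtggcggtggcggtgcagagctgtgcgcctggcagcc
Sfrp2: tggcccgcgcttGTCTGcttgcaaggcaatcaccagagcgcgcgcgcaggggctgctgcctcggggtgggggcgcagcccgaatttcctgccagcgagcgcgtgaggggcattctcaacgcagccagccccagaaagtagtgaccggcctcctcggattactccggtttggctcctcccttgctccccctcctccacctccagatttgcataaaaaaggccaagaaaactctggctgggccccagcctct
The motifs searched were CTTTGA and CTTTGT, core letters of TCF and LEF sites, CAGAC, the short SMAD element, GGCGCC, a GC-rich SMAD element, and TATAAA, the TATA box. All were searched on both strands except TATAAA, which was read on the strand of the gene, and no match overlapped another. The search window held 300 bases, 250 before and 50 from the start. Dkk1 held 3 matches to CTTTGA or CTTTGT, with first bases at -174, -117 and -98 from the start, the first of them on the opposite strand. Of 32851 RefSeq promoters of this length 31.2% held at least 1 such match and 1.14% held 3 or more. Dkk1 also held TATAAA at -54, found in 8.32% of promoters, and CAGAC at 45 after the start. Sfrp2 held none of the TCF and LEF letters, no exact TATAAA and 1 CAGAC on the opposite strand at -238, a motif found in 49.6% of promoters. Dkk2 held 1 CTTTGT at -80 and TATAAA at -32, Frzb held 1 CTTTGA at -95 on the opposite strand, and Wif1 held none of the letters searched. GGCGCC, in 11.9% of promoters, was in none of the 5. These matches describe letters in a window and are not evidence of binding.

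Dkk1, the antagonist that blocks the LRP co-receptors, rose with BMP4 in all 3 populations at day 1. In early cultures at day 1 it read 8.09 and 9.04 in control medium and 11.33 and 11.68 with BMP4. In late cultures at day 1 it read 7.62 and 7.57 without and 10.34 and 10.74 with BMP4. In intermediate cultures at day 1 it read 8.99 and 9.17 without and 10.37 and 11.61 with BMP4. In each population both BMP4 arrays lay above both controls, and the intermediate BMP4 arrays stood furthest apart from each other. The rises were 2.94 ± 0.32 (SE, n = 2 arrays a group) in early, 2.95 ± 0.32 in late and 1.91 ± 0.32 in intermediate cultures, which are 7.68, 7.71 and 3.75 times on the scale of signal + 16. The limma adjusted p-values were 2.76e-05, 0.000187 and 0.00801, in that order. The late value was the largest rise among all 15136 genes, and the early and intermediate values each ranked 5 among rises. The intermediate call was lost without BMP4 replicate 2 (1.29), without control replicate 1 (1.81) and without control replicate 2 (2.00), all limma fits of the remaining arrays. In such bulk samples a different number of cells of a type and a different amount of RNA in each cell cannot be told apart.

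At day 2 Dkk1 with BMP4 read lower than at day 1 in every population, and every BMP4 array still lay above the controls. Early cultures read 7.74 and 7.89 without and 10.17 and 10.34 with BMP4, a rise of 2.44 ± 0.32 (limma adjusted p = 0.000237). Late cultures read 7.45 and 7.37 without and 9.08 and 9.30 with BMP4, and intermediate cultures 8.13 and 8.51 without and 9.30 and 9.45 with BMP4. The groups did not overlap in either, yet the late difference of 1.78 ± 0.32 (adjusted p = 0.0758) and the intermediate one of 1.06 ± 0.32 (adjusted p = 0.649) did not pass. The late value passed with a pseudocount of 64 (1.54, adjusted p = 0.0491). The second probe set of Dkk1 gave 3.46, 2.50 and 2.72 at day 1 and 2.73, 1.12 and 1.51 at day 2 in early, intermediate and late cultures, and passed in the same 4 comparisons.

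Across the 15 groups the 6 BMP4 groups held the 6 highest Dkk1 levels. The order ran from early day 1 BMP4 at 11.51 ± 0.24 (SD, n = 2) through the intermediate and late day 1 BMP4 groups at 10.99 ± 0.87 and 10.54 ± 0.28, each overlapping the next. The day 2 BMP4 groups followed at 10.26 ± 0.12, 9.38 ± 0.11 and 9.19 ± 0.16 in early, intermediate and late cultures. The early group lay apart, while the lowest intermediate and the highest late array were level at 9.30. Late day 2 BMP4, the lowest of the BMP4 groups, overlapped the highest control group, intermediate day 1 at 9.08 ± 0.13. The 3 day 0 groups closed the order at 7.20, 6.99 and 6.79 for intermediate, early and late, each overlapping the next.

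**Figure D1:**
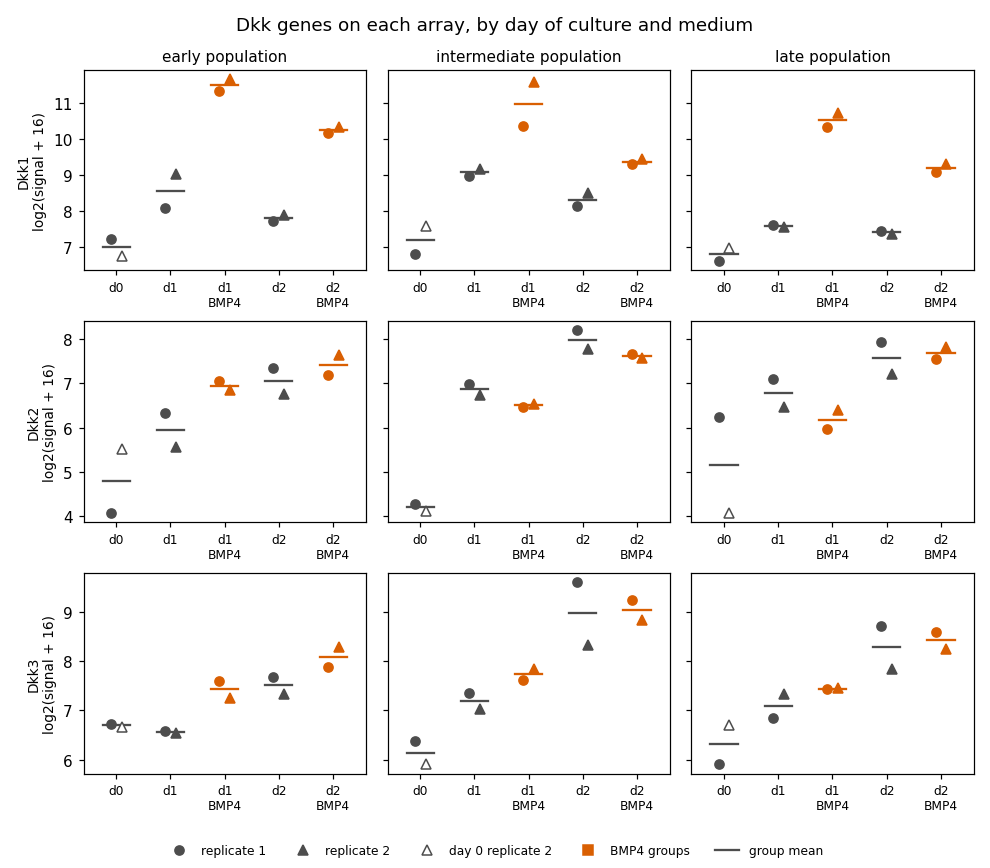
Level of Dkk1, Dkk2 and Dkk3 on each array, as log2(signal + 16) on the vertical axis, by day and medium on the horizontal axis, with 1 column of panels for each population and 1 bar for each group mean. Circles are replicate 1, triangles replicate 2, open triangles the day 0 arrays in doubt, and orange marks BMP4. Both BMP4 arrays of Dkk1 sit above both controls in 6 of 6 pairs of groups, while day 2 levels of Dkk2 and Dkk3 lie above those of day 0 in either medium.

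Dkk2 and Dkk3, the other Dickkopf genes, did not pass the threshold in any of the 6 BMP4 comparisons. Dkk2 at day 1 in early cultures read 6.32 and 5.56 without and 7.05 and 6.84 with BMP4, so that BMP4 lay above, a difference of 1.00 ± 0.49 (limma adjusted p = 0.348). In the other 2 populations at day 1 the BMP4 arrays of Dkk2 lay below the controls, at 6.46 and 6.53 against 6.98 and 6.74 in intermediate and at 5.97 and 6.39 against 7.09 and 6.46 in late cultures. The differences there were -0.36 ± 0.49 and -0.60 ± 0.49. Dkk3 lay above the controls with BMP4 in 4 of 6 pairs of groups, with differences between 0.07 and 0.87. The share of all genes that separate as often was not counted. Its value in early cultures at day 1 was 0.87 ± 0.34 (limma adjusted p = 0.214), from 6.58 and 6.54 without to 7.60 and 7.26 with BMP4.

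Sfrp2, which binds WNT ligands, fell in early cultures after 1 day of BMP4. It read 11.36 and 11.33 in control medium and 10.01 and 9.11 with BMP4, a fall of 1.79 on the log2 scale (SE 0.28, limma adjusted p = 0.00109). That is a 3.45-fold lower signal + 16, and rank 17 among the falls of all genes. The BMP4 arrays were far apart, and the call was lost when only the 4 arrays compared were fitted (adjusted p = 0.0535). In intermediate cultures at day 1 Sfrp2 read 11.46 and 11.17 without and 10.41 and 10.02 with BMP4, which do not overlap, at -1.10 ± 0.28 (adjusted p = 0.127). In late cultures at day 1 it read 10.29 and 10.40 without and 10.18 and 10.57 with BMP4, a difference of 0.03 ± 0.28. The low state in early cultures was not seen at day 2, when control arrays read 10.67 and 11.14 and BMP4 arrays 11.02 and 10.70. The change of the early response from day 1 to day 2 was 1.74 ± 0.39 and did not pass (limma adjusted p = 0.210), though it passed without early day 1 BMP4 replicate 1 (2.20, adjusted p = 0.0374).

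Sfrp1, a close relative of Sfrp2, had BMP4 arrays below the controls in early cultures at day 1 and in intermediate cultures at day 2. In early cultures at day 1 it read 9.60 and 9.67 without and 8.89 and 8.48 with BMP4. The difference of -0.95 ± 0.38 did not pass (limma adjusted p = 0.225) and passed once the 3 day 0 arrays in doubt were left out (adjusted p = 0.0329). Sfrp1 read 8.49 and 6.71 on the day 0 arrays labelled late, an SD of 1.26 that enters the spread shared by all groups. The 4 other probe sets of Sfrp1 had differences between -1.59 and -0.11 in early cultures at day 1, none past the threshold.

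Frzb, another ligand-binding antagonist found in early cartilage, lay on opposite sides of its controls in different populations. In early cultures it read 10.42 and 10.35 without and 10.13 and 9.75 with BMP4 at day 1, and 9.96 and 10.16 without and 9.46 and 9.94 with BMP4 at day 2. In late cultures it read 10.28 and 9.98 without and 10.77 and 10.88 with BMP4 at day 1, and 9.62 and 9.43 without and 10.15 and 10.15 with BMP4 at day 2. Intermediate cultures read 10.49 and 10.37 against 10.71 and 11.01 with BMP4 at day 1, and 10.29 and 10.34 against 10.35 and 10.49 at day 2. So both BMP4 arrays lay below both controls on both days in early cultures and above them on both days in the other populations. How many of all genes separate in this way was not counted. None of the 6 differences passed by itself: they were -0.45, -0.36, 0.43, 0.10, 0.70 and 0.62, each with an SE of 0.21, for early, intermediate and late cultures at days 1 and 2.

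Wif1, which binds ligands through a domain of its own kind, did not pass in any BMP4 comparison. Its replicates lay far apart, with replicate 1 above replicate 2 in 11 of the 12 groups of days 1 and 2 and a median gap of 1.21. The SE of a difference was 0.76, and differences with BMP4 ranged from -0.39 to 0.86. The one pair of groups that did not overlap was late day 2, at 8.50 and 7.51 without and 8.83 and 8.90 with BMP4 (0.86 ± 0.76).

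**Figure D2:**
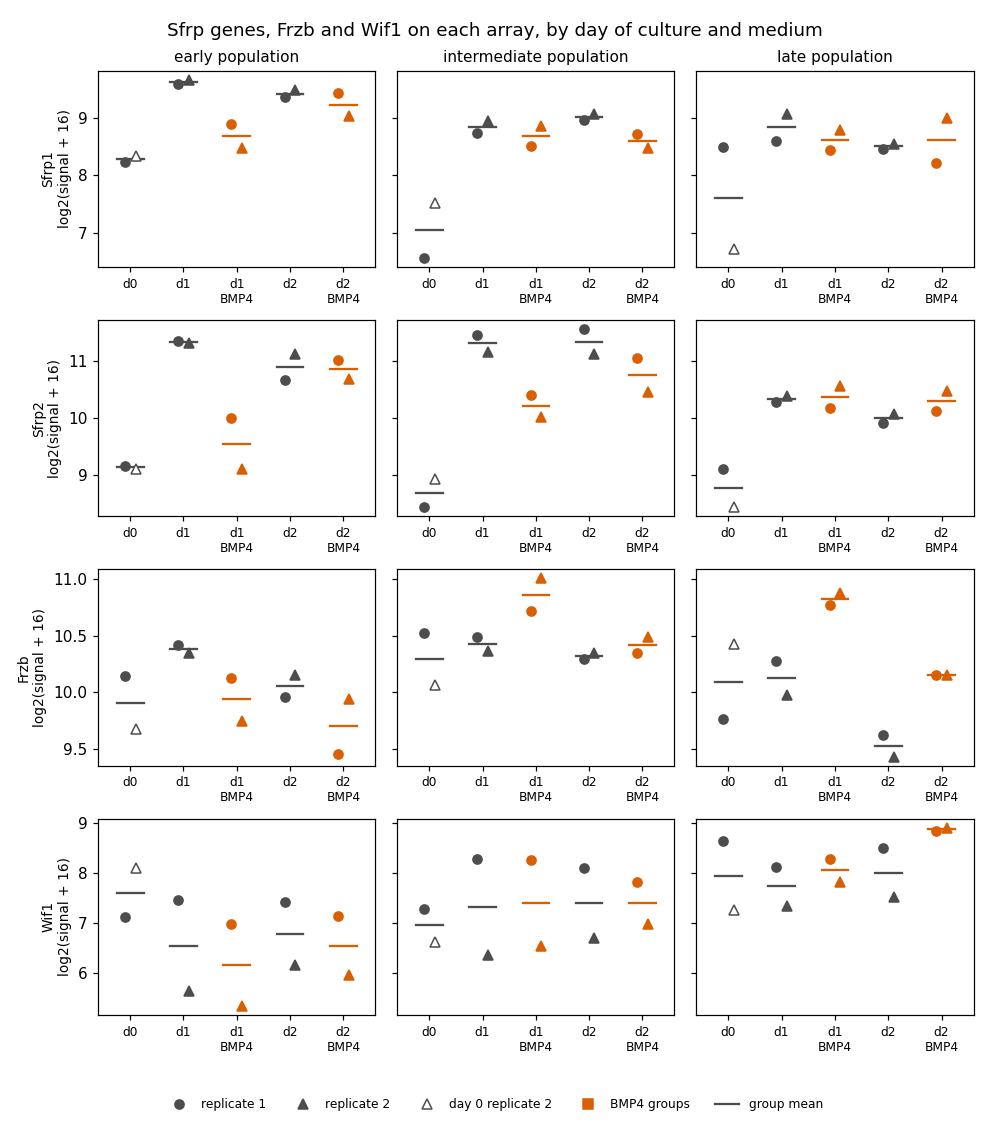
Level of Sfrp1, Sfrp2, Frzb and Wif1 on each array, as log2(signal + 16) on the vertical axis, by day and medium on the horizontal axis, with 1 column of panels for each population and 1 bar for each group mean. Circles are replicate 1, triangles replicate 2, open triangles the day 0 arrays in doubt, and orange marks BMP4. Sfrp2 with BMP4 sits at 10.01 and 9.11 against 11.36 and 11.33 in early cultures at day 1, Frzb with BMP4 sits below its controls in early and above them in late cultures, and Wif1 replicates are split by about 1 unit or more in most groups.

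In counts, 5 of 42 tests of a member against control passed, 4 of them higher (Dkk1) and 1 lower (Sfrp2). Early cultures at day 1 gave 2 of 7 members against 2.45% of all genes, and at day 2 1 of 7 against 5.68%. Intermediate cultures gave 1 of 7 against 0.238% at day 1 and 0 of 7 against 0.00661% at day 2. Late cultures gave 1 of 7 against 0.0793% at day 1 and 0 of 7 against 0.0132% at day 2. Apart from Dkk1 and this 1 fall of Sfrp2, the members did not pass. In a simulation of early cultures at day 2 alone, 64% of genes with a change of 1 and 96% with a change of 2 were called. These rates need not hold in the other comparisons, nor for members with a large SE such as Wif1 and Dkk2. At an unadjusted p under 0.05 there were 686 genes in intermediate and 712 in late cultures at day 2, where the share of calls was lowest.

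**Figure D3:**
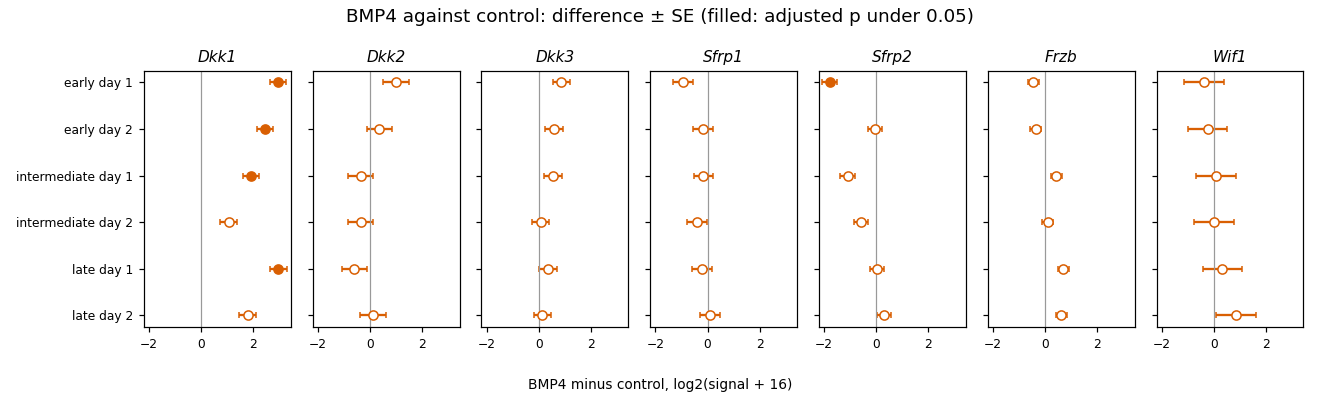
Difference between BMP4 and control arrays of the 7 genes on the horizontal axis, in log2(signal + 16) with its standard error, for each population and day on the vertical axis, 1 panel a gene. Filled points passed a limma adjusted p of 0.05. Dkk1 is right of 0 in all 6 rows with values from 1.06 to 2.95, Sfrp2 is at -1.79 in early cultures at day 1, and Frzb is left of 0 in early and right of 0 in the other rows.

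Whether the BMP4 response differed between populations or days was tested as an interaction. None of the 42 limma tests between populations passed. Of all genes 0.0264% and 0.211% passed for early minus late at days 1 and 2, and 0.0264% and 0.271% for early minus intermediate. For intermediate minus late 0% and 0.00661% passed. At an unadjusted p under 0.05 there were 10 of the 42 member tests. In the same order of comparisons and days, 820, 1614, 620, 1390, 424 and 589 of all 15136 genes had such a p-value. None of the 21 tests between days passed, with 2 at an unadjusted p under 0.05, against 0% of all genes in each population, where 1002 genes in early, 445 in intermediate and 483 in late cultures had an unadjusted p below 0.05. For Sfrp2 the early response was lower than the late one by 1.81 at day 1 (SE 0.39, limma adjusted p = 0.177), and this passed without early day 1 BMP4 replicate 1 (-2.26, adjusted p = 0.0273). For Dkk1 the early and late responses at day 1 differed by -0.01 ± 0.46, with a 95% interval from -0.96 to 0.95.

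Averaging the response over both days, a comparison added after the values were seen, gave a smaller error and uses the same arrays. Dkk1 rose by 2.69 ± 0.23 in early, 1.48 ± 0.23 in intermediate and 2.36 ± 0.23 in late cultures (limma adjusted p = 4.4e-07, 0.00391 and 2.19e-05). Sfrp2 fell by 0.91 in early cultures (SE 0.20, limma adjusted p = 0.00445), was at -0.84 ± 0.20 in intermediate cultures (adjusted p = 0.0558) and at 0.16 ± 0.20 in late cultures. The early average comes from the fall at day 1, as the day 2 group means were 10.90 without and 10.86 with BMP4. All genes called were 11.0%, 0.509% and 0.277% in the 3 populations, where 2, 1 and 1 of the 7 members passed.

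For Frzb the averaged response was -0.40 ± 0.15 in early, 0.27 ± 0.15 in intermediate and 0.66 ± 0.15 in late cultures, none past the threshold. Without the 3 day 0 arrays in doubt the SE was 0.11, and the early and late responses passed. The late one also passed in limma fits with a pseudocount of 64 (adjusted p = 0.0491), quantile normalization (0.0397), a replicate block (0.0457) or only the arrays compared (0.0123). It did not pass with a pseudocount of 1, no filter, median centring, no trend or the probe set of highest variance. The Frzb difference of early minus late, -1.06 ± 0.21, did pass (limma adjusted p = 0.0212), as 1 of 7 members against 0.780% of all genes. Early minus intermediate gave 0 of 7 against 0.429%, and intermediate minus late 0 of 7 against 0%, with 598 genes at an unadjusted p under 0.05. The Frzb call was lost without early day 1 control replicate 1 (-1.04), early day 1 BMP4 replicate 2 (-0.97), early day 2 control replicate 2 (-1.01), late day 1 control replicate 2 (-0.99), late day 1 BMP4 replicate 2 (-1.04) or late day 2 BMP4 replicate 1 (-1.06). The second Frzb probe set gave -1.33 ± 0.34 and did not pass (adjusted p = 0.0794). Cartilage markers moved in part alongside. Their summed signal over 15 genes was 9315 and 4056 in early day 1 BMP4 arrays against 10882 and 8656 in controls, which overlap. In late day 1 BMP4 arrays it was 14904 and 13718 against 8986 and 9703. At day 2 the BMP4 sums lay below the controls in early and above them in late cultures. In intermediate cultures, where Frzb lay above its controls, the sums overlapped on both days. Their part in the Frzb result was not tested.

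Macrophage markers also moved with BMP4. Their summed signal over 9 tested genes was 1066 and 1114 in early day 1 BMP4 arrays against 542 and 625 in controls, and 1183 and 1418 against 757 and 743 in intermediate ones. In late cultures at day 1 the sums were 555 and 454 with BMP4 against 469 and 478 without, where Dkk1 rose by 2.95. The part of macrophages in the Dkk1 values of early and intermediate cultures was not tested.

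In control medium the Sfrp genes and Dkk1 rose on the first day of culture. Sfrp2 went from 9.17 and 9.11 at day 0 to 11.36 and 11.33 at day 1 in early, from 8.45 and 8.93 to 11.46 and 11.17 in intermediate, and from 9.11 and 8.44 to 10.29 and 10.40 in late cultures. No day 1 array overlapped a day 0 array. The rises were 2.20 ± 0.28, 2.63 ± 0.28 and 1.57 ± 0.28 (limma adjusted p = 1.64e-05, 1.4e-06 and 0.000431), and 2.18, 2.86 and 1.24 without the 3 arrays in doubt, where all 3 still passed.

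Sfrp1 went from 8.24 and 8.33 to 9.60 and 9.67 in early, from 6.56 and 7.52 to 8.73 and 8.95 in intermediate, and from 8.49 and 6.71 to 8.61 and 9.07 in late cultures. The rises were 1.35, 1.80 and 1.24, each ± 0.38 (limma adjusted p = 0.0186, 0.00167 and 0.0260). Without the 3 arrays in doubt they were 1.39, 2.28 and 0.35, and the late one did not pass (adjusted p = 0.502). The late rise was also lost without late day 0 replicate 2 alone (0.35) or late day 1 control replicate 2 (1.01). The early rise was lost on leaving out any of its 4 arrays, with values from 1.30 to 1.39: early day 0 replicate 1 (1.30), early day 0 replicate 2 (1.39), early day 1 control replicate 1 (1.38) and early day 1 control replicate 2 (1.31). One other Sfrp1 probe set had the opposite sign in intermediate (-0.65) and late cultures (-0.38) without passing.

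Dkk1 went from 7.22 and 6.76 to 8.09 and 9.04 in early and from 6.81 and 7.59 to 8.99 and 9.17 in intermediate cultures. These rises of 1.58 ± 0.32 and 1.88 ± 0.32 passed (limma adjusted p = 0.00189 and 0.000286), also without the arrays in doubt (1.35 and 2.27). The early one was lost without early day 1 control replicate 2 (1.10, adjusted p = 0.0655). Late cultures, from 6.60 and 6.98 to 7.62 and 7.57, gave 0.80 ± 0.32 (adjusted p = 0.0918), and 0.99 without the arrays in doubt (adjusted p = 0.113).

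Dkk2 was at the bottom of the scale on 4 of the 6 day 0 arrays. It read 4.08 and 5.53 on the arrays labelled early, 4.27 and 4.13 on those labelled intermediate, and 6.24 and 4.09 on those labelled late, and 5.56 to 7.09 on the 6 control arrays of day 1. The intermediate rise of 2.66 ± 0.49 (limma adjusted p = 0.000537) passed also without the arrays in doubt (2.59). The late rise of 1.61 ± 0.49 (adjusted p = 0.0247) did not (0.53), nor without late day 0 replicate 2 alone (0.53) or late day 1 control replicate 1 (1.30). The early value of 1.14 ± 0.49 (adjusted p = 0.129) passed without the arrays in doubt (1.87, adjusted p = 0.00257) and without early day 0 replicate 2 (1.87). The 4 low day 0 signals were 0.897 to 3.36 before the logarithm, far under the filter of 20.3 to 30.5, so the size of a rise from them depends on the pseudocount and is no measured ratio. On the second day Dkk2 was at 1.10, 1.12 and 0.79 (each ± 0.49) in early, intermediate and late cultures, and none of these passed.

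Dkk3 was the only member with a call on the second day, in intermediate cultures. In these cultures it read 6.37 and 5.90 at day 0, 7.36 and 7.04 at day 1, and 9.60 and 8.33 at day 2, with rises of 1.06 ± 0.34 (limma adjusted p = 0.0304) and then 1.77 ± 0.34 (adjusted p = 0.0120). The first was lost without the arrays in doubt (0.82), as without intermediate day 0 replicate 2 (0.82), day 1 control replicate 1 (0.90) or day 1 control replicate 2 (1.22), and the second Dkk3 probe set gave 0.48 and did not pass. The second-day rise was larger on that probe set (2.22, limma adjusted p = 0.000200), and on the main one it was lost without day 1 control replicate 1 (1.93), day 1 control replicate 2 (1.61) or day 2 control replicate 1 (1.13). In early cultures it read 6.73 and 6.66, then 6.58 and 6.54, then 7.68 and 7.33, and in late cultures 5.91 and 6.72, then 6.86 and 7.33, then 8.72 and 7.84. The second-day differences there, 0.95 ± 0.34 and 1.19 ± 0.34, did not pass (adjusted p = 0.265 and 0.122), while on the second probe set the late one passed (1.46, adjusted p = 0.0155) and the early one did not (0.90). First-day differences there were -0.14 and 0.78, and -0.17 and 1.18 without the arrays in doubt, none past the threshold.

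Frzb and Wif1 did not pass in any of the 6 comparisons of time. Frzb stayed within 9.43 to 10.53 on all 18 control arrays, with second-day differences of -0.33, -0.11 and -0.60 (SE 0.21) in early, intermediate and late cultures. Its first-day differences were 0.47, 0.13 and 0.03, and 0.24, -0.10 and 0.37 without the arrays in doubt. For Wif1 the first-day differences were -1.05, 0.36 and -0.22, each ± 0.76, and -0.56, 0.02 and -0.91 without those arrays.

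**Figure D4:**
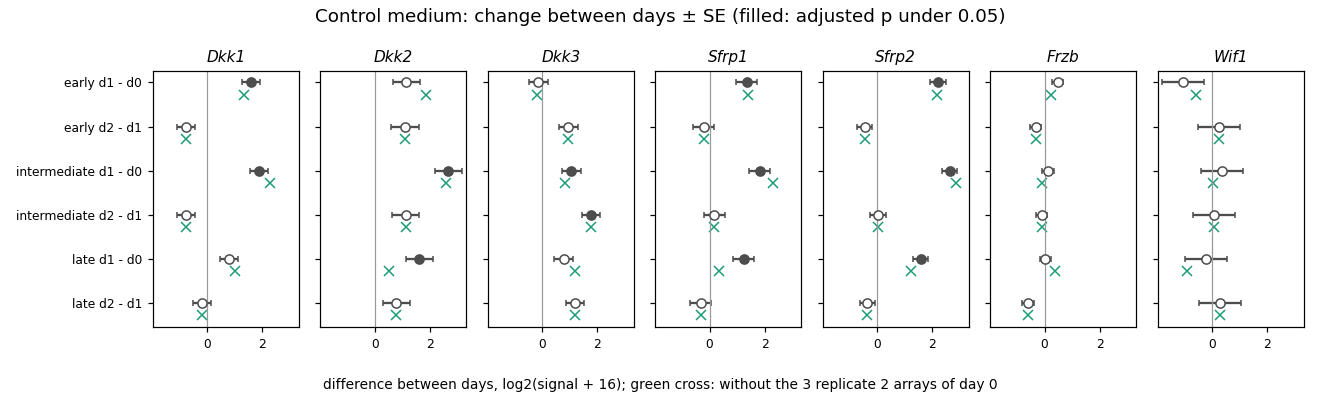
Difference between days in control medium for the 7 genes on the horizontal axis, in log2(signal + 16) with its standard error, for each population and step on the vertical axis, 1 panel a gene. Filled points passed a limma adjusted p of 0.05, and green crosses give the value without the 3 day 0 arrays in doubt. Sfrp2 passes on the first day in all 3 populations at 1.57 to 2.63, and the late values of Dkk2 and Sfrp1 move from 1.61 and 1.24 to 0.53 and 0.35 at the crosses.

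In total 12 of 42 member tests of time passed with all arrays, all of them rises. Without the arrays in doubt the late rises of Sfrp1 and Dkk2 shrank to 0.35 and 0.53 and the intermediate one of Dkk3 to 0.82. The early rise of Dkk2 grew to 1.87. On the first day, with all arrays, 3 of 7 members passed in early cultures against 15.5% of all genes. In intermediate cultures 5 of 7 passed against 21.0%, and in late ones 3 of 7 against 18.9%. On the second day the counts were 0, 1 and 0 of 7 against 1.21%, 0.832% and 0.846%. Other cell types changed over the same first day. Red blood cell markers summed to 7499 to 18029 at day 0 and to 179 to 616 on all culture arrays, and smooth muscle markers to 393 to 561 at day 0 and 6895 to 11874 in culture. Their part in the first-day changes was not tested.

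Over all cultures of days 1 and 2, 8 arrays a population, the members differed between populations in different directions. Dkk1 was higher in early and in intermediate than in late cultures, by 0.85 ± 0.16 and 0.76 ± 0.16 (limma adjusted p = 0.00178 and 0.00431). The early minus late difference was positive in 4 of 4 conditions, from 0.40 in day 2 control to 1.07 in day 2 BMP4 cultures. Intermediate minus late was 1.49 and 0.91 in control medium at days 1 and 2, and 0.45 and 0.19 with BMP4. Early minus intermediate was -0.51 and -0.51 in control medium and 0.52 and 0.88 with BMP4, shifts that did not pass as interactions (1.03 and 1.39, adjusted p = 1 and 0.288), and averaged 0.09 ± 0.16 (adjusted p = 0.868).

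Wif1 had the largest population difference of the members. Its late cultures ranged from 7.34 to 8.90 over 8 arrays with a lowest group mean of 7.73, and its early cultures from 5.35 to 7.46. 1 late array, at 7.34, lay below the 2 highest early arrays, and early was lower by 1.65 (SE 0.38, limma adjusted p = 0.00869), in 4 of 4 conditions. Intermediate cultures lay between, at -0.79 ± 0.38 against late (adjusted p = 0.248) and with early at -0.87 ± 0.38 against them (adjusted p = 0.292). Skeletal muscle markers were also higher in late cultures. Their summed signal over 14 genes was 7847 to 15260 on late culture arrays, 1951 to 6231 on early and 1494 to 5276 on intermediate ones. Of these genes 12 of 14 were lower in early than in late cultures. The early and intermediate sums overlapped, whereas Wif1 was lower in early than in intermediate cultures in 4 of 4 conditions. The part of muscle markers in the Wif1 differences was not tested.

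Dkk3 and Frzb were lower in early than in intermediate cultures, by 0.84 (SE 0.17, limma adjusted p = 0.00567) and 0.49 (SE 0.10, adjusted p = 0.00863), each in 4 of 4 conditions. For Dkk3 the gap was widest in day 2 control cultures, at -1.46, and its second probe set passed too (-0.73). For Frzb the gap was -0.04 in day 1 control and -0.92 in day 1 BMP4 cultures, and its second probe set did not pass (-0.59, adjusted p = 0.0626). Sfrp2 was higher in intermediate than in late cultures by 0.66 ± 0.14 (limma adjusted p = 0.00372), at 0.97 and 1.35 in control medium on days 1 and 2 and at -0.16 and 0.46 with BMP4. Frzb was also higher in intermediate than in late cultures by 0.35 ± 0.10 (adjusted p = 0.0437). That call was lost on leaving out any 1 of 14 of the 16 arrays, all but intermediate day 1 BMP4 replicate 1 and late day 1 control replicate 1, with values from 0.31 to 0.37.

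Sfrp1 was at 0.60 ± 0.19 in early against late cultures, higher in 4 of 4 conditions, and missed the threshold (limma adjusted p = 0.0531). It passed without the 3 day 0 arrays in doubt (adjusted p = 0.00296), and 2 of its 4 other probe sets passed (0.73 and 0.91). Dkk2 passed in no population comparison, with differences between -0.41 and 0.19.

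**Figure D5:**
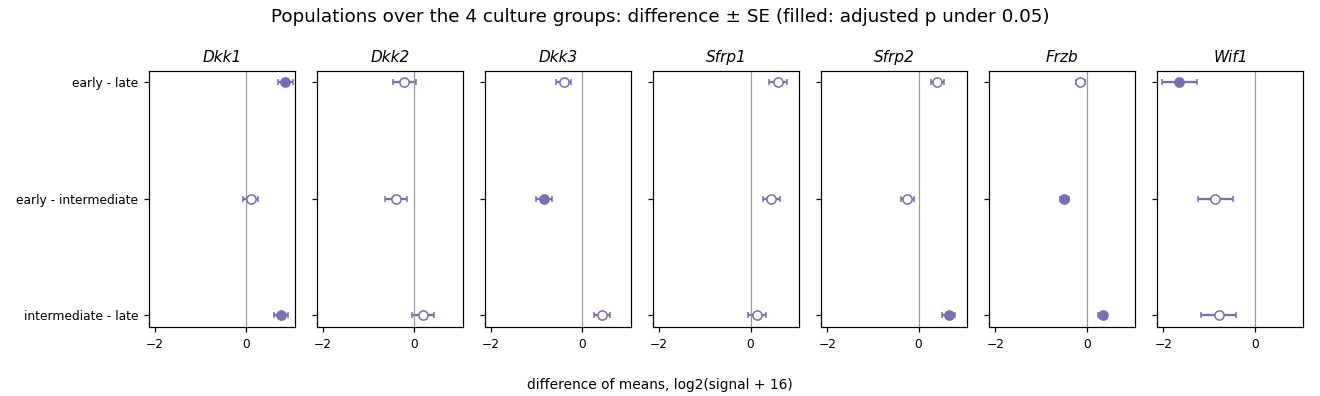
Difference between populations over the 4 culture groups of days 1 and 2 for the 7 genes on the horizontal axis, in log2(signal + 16) with its standard error, for each pair of populations on the vertical axis, 1 panel a gene. Filled points passed a limma adjusted p of 0.05. Dkk1 is to the right of 0 at 0.85 and 0.76 against late cultures, and Wif1 is to the left at -1.65 for early against late.

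In counts, 7 of 21 member tests between populations passed: 2 of 7 in early against late cultures beside 9.02% of all genes, 2 of 7 in early against intermediate beside 3.26%, and 3 of 7 in intermediate against late beside 7.64%. The order of group levels differed between members. Dkk2 was lowest in the 3 day 0 groups (4.20 to 5.16) and highest in intermediate day 2 control at 7.98 ± 0.30 (SD, n = 2), with all but 1 pair of neighbours overlapping. Dkk3 was highest in 5 of the 6 day 2 groups, from 9.04 ± 0.27 in intermediate BMP4 down to 8.09 ± 0.28 in early BMP4 cultures, each overlapping the next, while early day 2 control at 7.51 ± 0.25 lay under intermediate day 1 BMP4 at 7.74 ± 0.16, which it overlapped. Sfrp1 was highest in early day 1 control at 9.63 ± 0.05 and apart from the next group, early day 2 control at 9.42 ± 0.09. Sfrp2 was highest in intermediate day 2, early day 1 and intermediate day 1 controls, at 11.35, 11.34 and 11.32, which overlap; the next group, early day 2 control at 10.90 ± 0.33, had 1 array (11.14) above the lowest of theirs (11.13). Frzb was highest in intermediate and late day 1 BMP4 cultures, at 10.86 ± 0.21 and 10.82 ± 0.07, which overlap and lie above the rest. Wif1 was highest in late day 2 BMP4 at 8.87 ± 0.05, apart from the next, and all its other neighbours overlapped.

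Over the 12 group means of days 1 and 2, read for all genes on the same arrays and given as a description, the members had different patterns. Dkk2 and Dkk3 were the pair most alike, with a Pearson r of 0.872, followed by Sfrp1 and Sfrp2 at 0.654, and Sfrp1 and Wif1 were the most opposed at -0.602. Among 3076 genes whose 12 group means spanned at least 1, those most like Dkk1 were 4930402H24Rik (0.970), Unc5b (0.966) and Plac8 (0.958). Most like Dkk2 were Hebp1 (0.928), Fbln5 (0.906) and Ramp1 (0.899), and most like Dkk3 were Igfbp7 (0.968), Fbln5 again (0.936) and Ltbp3 (0.923). Sfrp1 was most like Ndnf (0.858), Tcim (0.811) and Cav1 (0.759), and Sfrp2 most like Camsap3 (0.819), Ppm1l (0.808) and Zfp36l2 (0.808). Frzb was most like Bmpr1b (0.869), a BMP receptor gene, Ppargc1a (0.845) and Peli2 (0.834). Wif1 was most like Tnnt2 (0.900), a troponin of muscle, Six2 (0.897) and Col26a1 (0.897).

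In the rest of the WNT pathway the single-day calls with BMP4 were all in early cultures, where 2.45% of all genes at day 1 and 5.68% at day 2 were called. Of 11 other secreted or membrane inhibitors Apcdd1, which acts at the cell surface, rose at day 2 by 1.27 ± 0.34 (limma adjusted p = 0.0311). Of 17 ligands Wnt2 rose at day 2 by 1.99 ± 0.40 (adjusted p = 0.00613). Of 21 receptors and R-spondins 1 rose and 2 fell on each day. Fzd7 rose by 0.76 and 1.03, and among those that fell were Fzd8 at day 1 (-1.50 ± 0.29) and Fzd9 at day 2 (-1.46 ± 0.33). The transcription factor Tcf7l2 fell on both days (-0.73 and -0.69) among 20 intracellular components. Of 8 canonical target genes, the cell cycle gene Ccnd1 fell on both days (-0.71 and -0.87) and the feedback inhibitor Nkd1 rose at day 1 (0.94 ± 0.23). The median of the 8 targets was -0.06 and -0.16 at days 1 and 2, beside 0.05 and 0.02 for all genes.

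Canonical target genes tested were mostly lower after the first day in control medium, with fewer calls without the arrays in doubt. In each population 5 of 8 were called lower and 1 higher, beside 15.5%, 21.0% and 18.9% of all genes called either way, with medians of -0.97, -0.94 and -0.84 in early, intermediate and late cultures beside 0.00, -0.02 and 0.03 for all genes. Axin2, a feedback gene widely used as a readout of the pathway, was at -1.92 ± 0.35, -1.65 ± 0.35 and -1.55 ± 0.35 (limma adjusted p = 0.000706, 0.00191 and 0.00363). Lef1 was at -0.85, -1.45 and -0.85 (each ± 0.28) and Twist1, also a mesenchyme gene, at -1.23, -1.09 and -1.40 (each ± 0.21), all past the threshold. Without the arrays in doubt Twist1 passed in each population, and Lef1 passed in intermediate cultures (-1.43) but not in early (-0.81, adjusted p = 0.188) or late ones (-0.82, adjusted p = 0.195). Without the arrays in doubt 3, 4 and 1 of 8 were lower and 0 higher, beside 11.7%, 12.9% and 10.3% of all genes called, and Axin2 read -1.89, -1.67 and -1.45 (adjusted p = 0.0134, 0.0254 and 0.0572).

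Other parts of the pathway moved both ways on that day. The secreted lipase Notum, which inactivates WNT ligands, fell by 0.98, 1.00 and 1.03 (SE 0.20) in early, intermediate and late cultures, and by 0.92, 0.76 and 1.10 without the arrays in doubt, past the threshold each time. Apcdd1 was at -0.92, -1.44 and -1.51 (SE 0.34), with the last 2 past the threshold, and Shisa3 rose by 2.18 ± 0.45 in intermediate cultures. Without the arrays in doubt these calls of Apcdd1 (-1.61 and -1.53) and Shisa3 (2.40) were made too. Among receptors Fzd8 rose by 1.48, 2.27 and 1.99 and Fzd9 by 2.22, 2.54 and 1.97, while Fzd10 was at -1.12, -1.67 and -1.22, all past the threshold. Without the arrays in doubt Fzd8 and Fzd9 passed in each population, and Fzd10 passed in early and intermediate cultures (adjusted p = 0.0511 in late). Wls, which carries ligands out of the cell, rose by 0.74, 0.73 and 0.64, and without the arrays in doubt passed in early cultures alone (0.89). Tcf7l2 (-0.85) and Prickle2 (-0.77) fell in intermediate cultures, also without the arrays in doubt (-0.88 and -0.85). Prickle2 fell in late cultures too (-0.59, limma adjusted p = 0.0441), a call lost without those arrays (-0.77, adjusted p = 0.0633). Among ligands Wnt4 rose in intermediate cultures (1.27 ± 0.40), and in late cultures Wnt9a rose (1.23 ± 0.39) and Wnt6 fell (-0.94 ± 0.27); without the arrays in doubt none of these 3 passed.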

How the data were processed

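The data are the authors' deposited MAS5 signals of Mouse Genome 430 2.0 arrays, an intensity on a linear scale with a 2% trimmed mean of 150 on every array. MAS5 is named per the submitters' processing notes, and no other setting is given in the sources used here. No value column was left unused. Of 45101 probe sets 34945 were annotated to 1 gene symbol. The deposited intensity was turned into log2(signal + 16). Probe sets above their array's 40th percentile on at least 2 arrays were kept and the brightest taken for each gene, giving 15136 genes.

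One limma model (version 3.58.1, R 4.3.3) held 15 group means over all 30 arrays, with 15 residual degrees of freedom and 5.51 prior ones and the prior variance following the mean level. P-values were adjusted by Benjamini-Hochberg within each comparison, over all genes. Tests were two-sided at 0.05. One spread a gene was shared by all groups, which understates the error of a group with unequal replicates. An SE is the model's and an SD that of 2 arrays. On simulated data for BMP4 in early cultures at day 2 (15136 genes), changes of 1, 1.5, 2 and 3 on the log2 scale were recovered for 64%, 76%, 96% and 100% of the genes changed, and 5.08% of calls were false. Only a small set of genes was changed at each size, and noise was drawn independently for each array. The rates therefore leave out any spread that goes with the replicate number.

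The members and lists were chosen with earlier results of these data known. All members are named. From each WNT list up to 3 genes past the threshold with the smallest adjusted p were named for BMP4 and as many for time. Alternatives were other pseudocounts, no filter, quantile normalization, median centring, a replicate block, another probe set, no trend, only the arrays compared, and leaving out arrays. Replicate numbers were not taken as pairs, and the labels give no batch that goes with them. Same-numbered deviations of 105 pairs of groups correlated at a median of 0.121, from -0.125 to 0.349, with 57.1% above 0.1. Some of the spread may therefore go with the replicate number, which the model leaves in the error. Promoter sequences are those of RefSeq (GRCm38.p6).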

Additional observations from a re-analysis of the deposited data

Results flagged for a closer look

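In 7 comparisons both BMP4 arrays lay above both controls in one population and below them in another, while limma's test of the difference itself did not pass. With 2 arrays a group such separation is common even without an effect, and its share among all genes was not counted. For Dkk2 at day 1 the early response exceeded the late one by 1.60 (adjusted p = 0.813) and the intermediate one by 1.36 (adjusted p = 1.00). For Sfrp2 at day 2 the intermediate response minus the late one was -0.88 (adjusted p = 1.00).

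The other 4 were of Frzb, whose early response was on the lower side throughout. Early minus late was -1.14 at day 1 (limma adjusted p = 0.286) and -0.98 at day 2 (adjusted p = 0.220). Early minus intermediate was -0.88 at day 1 (adjusted p = 0.909) and -0.46 at day 2 (adjusted p = 0.695). With both days averaged, a comparison added after the values were seen, early minus late was -1.06 and passed (limma adjusted p = 0.0212). These comparisons share arrays and are not separate pieces of evidence.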

How the results depend on the processing

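No member that passed the threshold turned its direction under the alternatives tried, except that 1 of the 4 other probe sets of Sfrp1 had the opposite sign, without passing, for the first day in intermediate (-0.65) and late cultures (-0.38). Of the 5 calls of a member with BMP4, 3 were made when only the arrays compared were fitted, which leaves 2 residual degrees of freedom among samples. The difference of the response between populations, and its change between days, gave 0 to 1 calls on leaving out 1 array, the 1 being Sfrp2 without early day 1 BMP4 replicate 1. With a replicate block the calls between populations went from 7 to 11 and those of the response averaged over both days from 5 to 10. How many of all genes were called under each alternative is not given here. The counts of calls in this paragraph are therefore no result about the members. The replicate block also brought Dkk1 in late cultures at day 2 past the threshold (1.78, limma adjusted p = 0.00670), as it did Wif1 for early against intermediate (-0.87, adjusted p = 0.0359) and intermediate against late cultures (-0.79, adjusted p = 0.0331). Without the 3 replicate 2 arrays of day 0 the averaged response gave 9 calls, and the spread of several members became smaller (SE of Sfrp1 0.28 in place of 0.38). The calls of time ranged from 10 to 13 over all alternatives. The precision is limited by 2 arrays a group and, for Dkk2 at day 0 and for Wif1, by dim or divided signals.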

Other observations

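Wif1 was split by replicate number: replicate 1 was above replicate 2 in 13 of 15 groups, with gaps from -0.98 to 1.92. For Dkk1 replicate 2 was the higher array in 12 of 15 groups, with replicate 1 minus replicate 2 between -1.24 and 0.46. The labels give no batch that goes with the number, and the cause was not tested.

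At day 0, 3 members read alike on the array labelled early replicate 2 and the array labelled late replicate 1, which both had high Tbx5 and Meis2. Dkk2 was at 5.53 and 6.24 there and between 4.08 and 4.27 on the other 4 arrays. Wif1 was at 8.09 and 8.64 there and between 6.63 and 7.29 on the others, and Frzb at 9.67 and 9.76 against 10.06 to 10.53.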
